A study of Mus musculus with 24 samples.

Results

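The interferon response was followed through 9 genes that interferons switch on, *Isg15*, *Ifit1*, *Ifit3*, *Irf7*, *Irf9*, *Stat2*, *Ifitm3*, *B2m* and *Bst2*. They were taken by symbol from a table of 54658 genes, and each symbol was present once. The question behind the choice was whether cells that missegregate chromosomes when CEP135 is lost also show an interferon response. Libraries were made from the dorsal telencephalon of *Cep135*(Δ8/Δ8) mouse embryos, whose genotype the labels give as Cep135 (-/-), and from *Cep135*(+/+) embryos, hereafter mutants and controls. There were 3 mutants and 3 controls at the embryonic age E11.5 and 3 of each at E14.5, all from matings of heterozygous mice and with no drug treatment. The same 6 E14.5 embryos also gave cultured cortical neural progenitors, disaggregated and grown for 12 or 24 hours into incipient neurospheres, so that 24 libraries came from 12 embryos. The allele is a constitutive frameshift made by genome editing and acts in every tissue. No label states the litter, and the prefix of the sample name was taken for it. No prefix was shared by embryos of both ages, so that age and prefix cannot be told apart. For E11.5 mutants B and C the prefix differs between the title and the description, and that of the title was used. The cortex of mutant 6 is labelled E14.5 in its title and E11.5 in its description, and it was taken as E14.5. Without it *Stat2* and *B2m* were still called for age, and *B2m* and *Ifitm3* for culture.

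Type I interferons bind the receptor IFNAR, and the kinases JAK1 and TYK2 then activate STAT2. STAT2 and IRF9 are parts of the complex ISGF3, which binds interferon-stimulated response elements near the starts of its target genes. Many members of the pathway, *Stat2*, *Irf9* and *Irf7* among them, are targets as well, and their RNA rises in cells that respond. The response can begin when the sensor cGAS meets DNA in the cytoplasm, for example in a ruptured micronucleus left by a lagging chromosome, and signals through STING. In the embryonic brain, microglia and vessel cells carry much of the machinery for innate immunity.

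The element that ISGF3 reads was looked for in the promoters of the members and is printed here, because it is a sequence feature of interferon targets that the choice of genes did not use. The windows are RefSeq sequence of GRCm38.p6, 5′ to 3′ on the strand of the gene, and capitals mark the element's core GAAANNGAA, or TTCNNTTTC when the core lies on the other strand. They cover chr4:156200851-156200920 on the minus strand (*Isg15*), chr19:34640762-34640831 on the plus strand (*Ifit1*), chr19:34583370-34583439 on the plus strand (*Ifit3*) and chr10:128270248-128270317 on the plus strand (*Stat2*). The windows of the remaining genes are chr7:141010717-141010742 on the minus strand (*Ifitm3*), chr2:122147518-122147587 on the plus strand (*B2m*) and chr8:71537560-71537629 on the minus strand (*Bst2*).
Isg15: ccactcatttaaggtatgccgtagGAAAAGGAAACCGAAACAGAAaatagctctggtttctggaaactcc
Ifit1: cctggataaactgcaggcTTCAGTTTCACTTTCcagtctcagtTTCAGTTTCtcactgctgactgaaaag
Ifit3: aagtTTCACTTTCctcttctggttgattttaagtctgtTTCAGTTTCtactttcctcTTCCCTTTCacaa
Stat2: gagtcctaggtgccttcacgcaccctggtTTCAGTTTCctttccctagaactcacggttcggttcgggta
Ifitm3: GAAAAGGAAacttctgaGAAACCGAA
B2m: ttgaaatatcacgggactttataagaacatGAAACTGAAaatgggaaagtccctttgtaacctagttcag
Bst2: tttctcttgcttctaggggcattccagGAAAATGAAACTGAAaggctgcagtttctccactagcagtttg

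Of the 9 members, 7 held the core in the 300 bases that run from 250 bases before the start to 50 after it. Both strands were searched and matches were allowed to overlap, as they do in *Isg15*, *Ifit1* and *Bst2*. The core was found in 8.56% of 32851 RefSeq promoters of the same length, 2 or more copies in 0.624% and 3 or more in 0.0639%. *Isg15*, *Ifit1* and *Ifit3* held 3 copies each, *Ifitm3* and *Bst2* held 2, and *Stat2* and *B2m* held 1. *Irf7* and both promoters of *Irf9* held none, which says only that these letters are not in those windows. The gamma-activated site TTCNNNGAA, which is its own reverse complement, was found in *Ifitm3* and *Bst2* and in 8.30% of all promoters, and in both genes it overlapped a copy of the core. A match describes the sequence and does not show that the site is used.

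**Figure D1:**
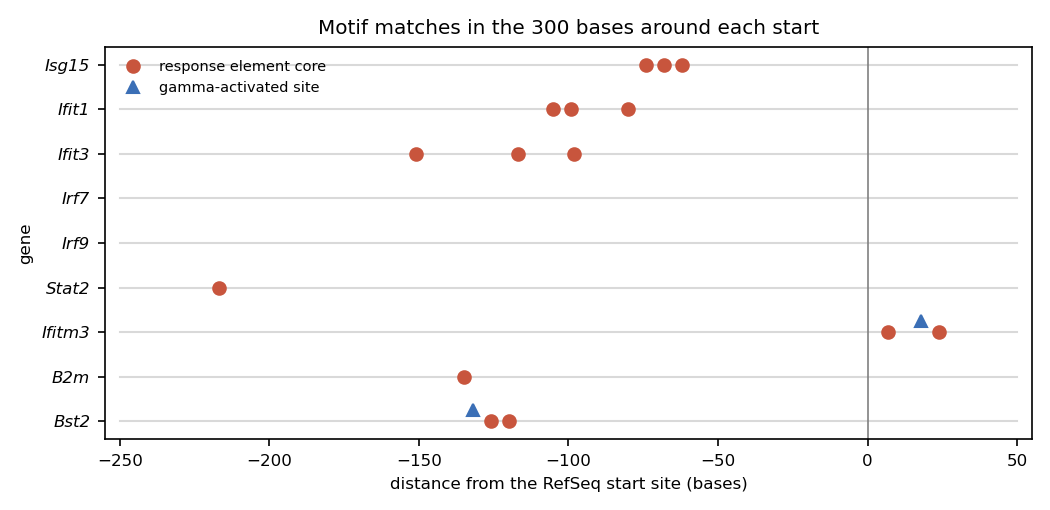
Matches to the response element core (circles) and to the gamma-activated site (triangles) in the RefSeq promoter of each member, by distance in bases from the start. *Isg15*, *Ifit1* and *Ifit3* each carry 3 cores upstream of the start, the 2 cores of *Ifitm3* lie just after it, and *Irf7* and *Irf9* carry none.

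Depth ran from 4732781 to 11645213 reads assigned to genes (median 8111692). At 24 hours the controls held 4732781 to 5709443 reads and the mutants 7903426 to 11645213. The values are normalized read counts, the reads of a gene divided by 1 size factor per library, from 3′ libraries in which 1 transcript gives about 1 read whatever its length. A count of 0 allows up to 3 reads, or 1.94 to 5.06 normalized reads depending on the library, and these limits cover counting error only. Markers of dorsal progenitors (10 of 10) and of cortical neurons (8 of 8) were detected in every stage, the culture included. The targeted gene *Cep135* had normalized read counts of 171 to 375 in controls and 173 to 336 in mutants, with genotype differences of -0.15 to 0.15 on the log2 scale and adjusted p of 0.85 to 0.94 within stages. The allele lacks a few bases of the second exon and the reads lie at the 3′ end of the transcript, so that this level does not check the genotype labels. In these bulk samples, fewer cells of a type and less RNA per cell cannot be told apart.

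The members fell into those with counts and those almost without. *Irf9*, *Stat2*, *Ifitm3* and *B2m* were above 0 in 24 of 24 libraries. *Isg15* was above 0 in 22 libraries and *Bst2* in 21, at normalized read counts of at most 20.9 and 14.4. *Irf7*, *Ifit1* and *Ifit3* were above 0 in 13, 12 and 9 libraries. In the 23 libraries whose whole reads could be recovered, they gave 31, 25 and 15 reads in all, so that for these genes a difference between groups was not detectable at this depth. The main test, limma on log2(normalized read count + 1), was limited to genes averaging 10 or more over the libraries of a comparison, and 4 members passed that filter in every comparison (5 at E11.5, with *Isg15*).

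**Figure D2:**
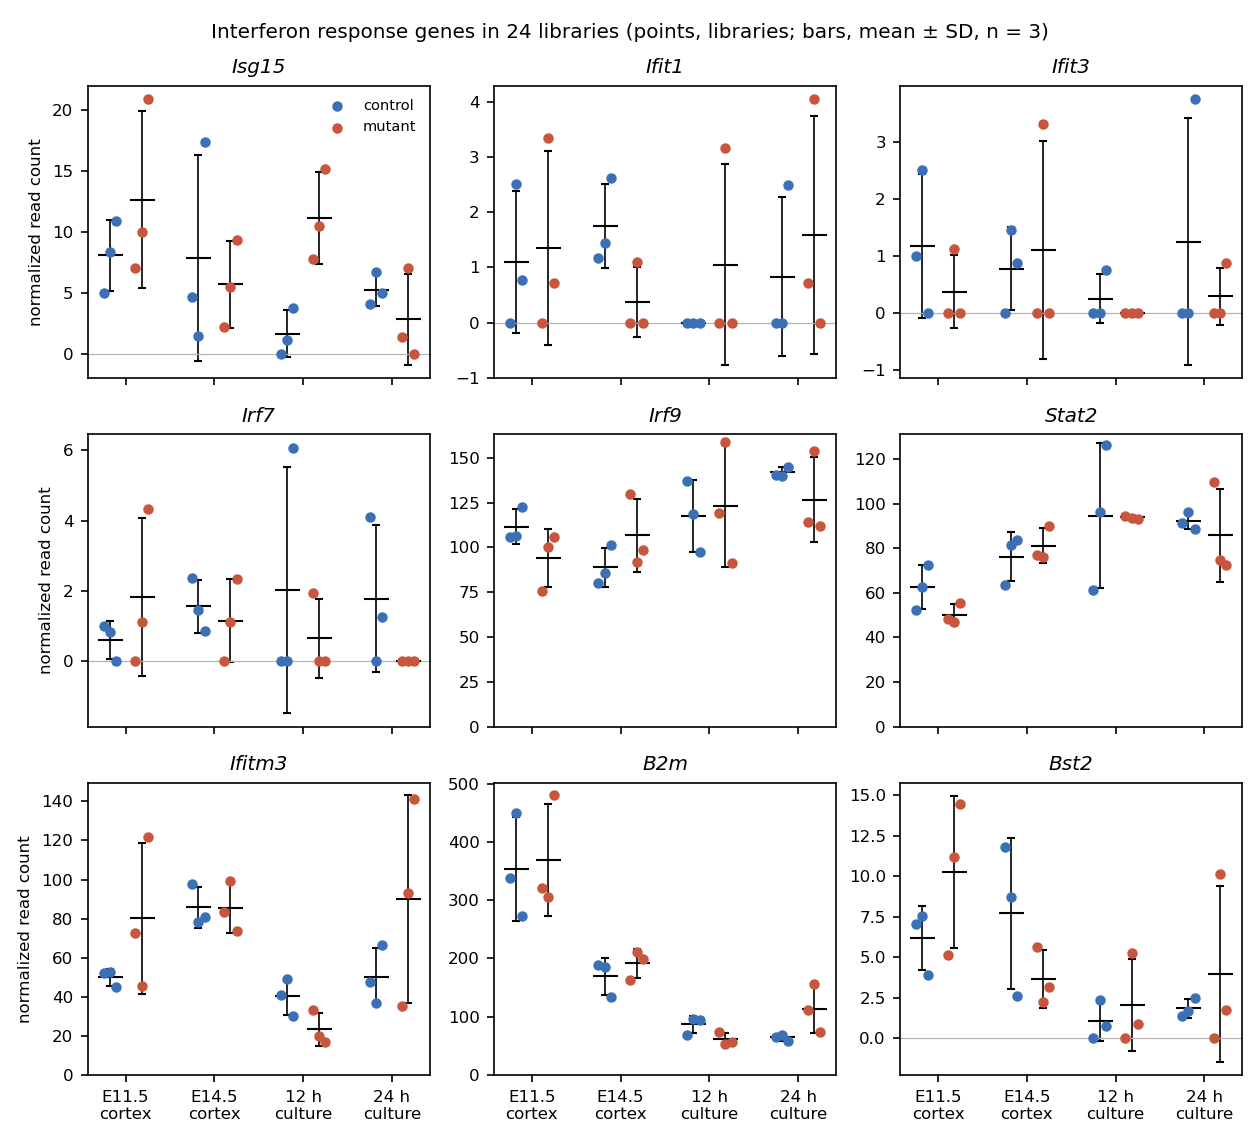
Normalized read count of each member in 24 libraries, by stage and genotype (points, libraries; bars, mean ± SD of 3 libraries). *Ifit1*, *Ifit3* and *Irf7* stay near 0 throughout, and *B2m* steps down from E11.5 to E14.5 cortex and again in culture in both genotypes.

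No member differed between mutants and controls at an adjusted p of 0.05. The count was 0 of 5 members in E11.5 cortex and 0 of 4 in E14.5 cortex, 12-hour culture, 24-hour culture and the 12 cortices together, by limma with Benjamini-Hochberg adjustment over all genes tested. Among all genes the share called was 0.0149% in E11.5 cortex, 0.0736% in E14.5 cortex, 0% in 12-hour and 0.271% in 24-hour culture, and 0.139% over the 12 cortices. At an unadjusted p under 0.05 the members gave 0, 0, 0, 1 and 0 in the same order, beside 7.39%, 9.10%, 4.85%, 10.6% and 8.71% of all genes. The member counted at 24 hours was *B2m*. With edgeR or DESeq2 on whole reads the count was 0 of 4 in the E14.5 cortices and in both cultures.

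**Figure D3:**
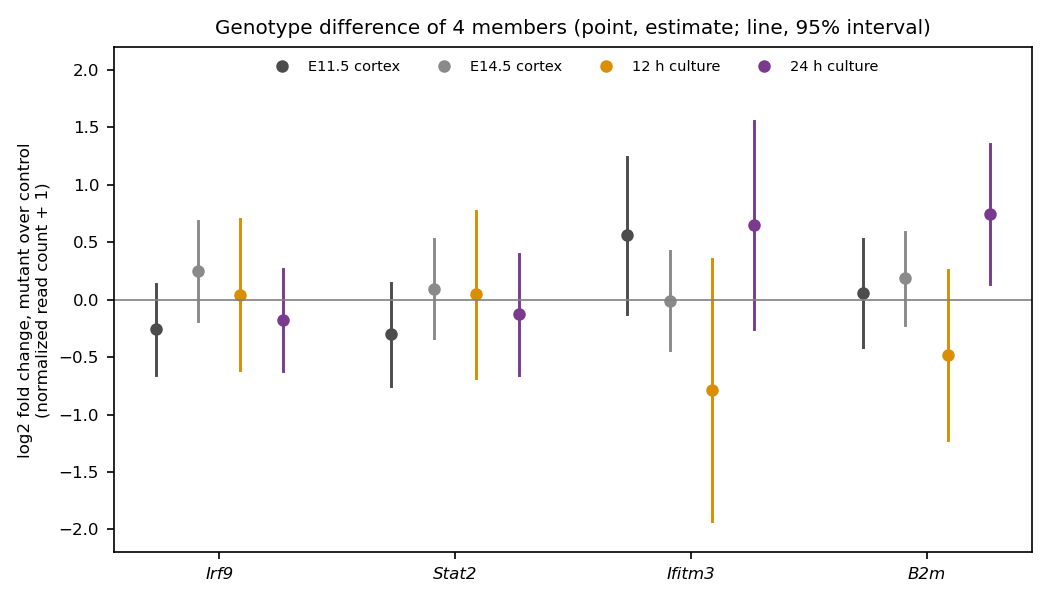
Difference between mutants and controls, in log2(normalized read count + 1), of the 4 members tested in every stage (point, limma estimate; line, 95% interval). The interval of *B2m* at 24 hours, 0.14 to 1.35, is the one that leaves out 0, with an adjusted p of 0.35.

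Interferon RNA itself was almost absent. Of 12 interferon genes in the table, 10 were at 0 in 24 of 24 libraries; the limit of such a 0 was given above. The exceptions were 1 read of *Ifna2* in the 24-hour culture of control 4 and 1 read of *Ifnb1* in that of mutant 1.

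The type I receptor was present. The normalized read count of *Ifnar1* lay between 66.3 and 189.9 over the 24 libraries and that of *Ifnar2* between 55.3 and 136. *Ifnlr1*, the receptor chain for type III interferon, lay between 0 and 4.7. Of 6 receptor genes, 4 were tested. With age, *Ifngr2*, a chain of the receptor for interferon gamma, was higher at E14.5 than at E11.5 by 1.01 ± 0.23 (SE) on the log2 scale (adjusted p = 0.00147). Its partner *Ifngr1* was lower at E14.5 (-0.65 ± 0.16, adjusted p = 0.00314) and lower again after 12 hours of culture (-1.79 ± 0.32, adjusted p = 0.000683).

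*Stat2* (ENSMUSG00000040033, chromosome 10, 128270559 to 128292849, plus strand) encodes the transcription factor that is specific to type I and type III interferon. In E11.5 cortices its normalized read count was 52.4, 62.7 and 72.3 in controls D, E and F and 48.4, 46.8 and 55.5 in mutants A, B and C. In E14.5 cortices it was 63.5, 81.3 and 83.7 in controls 3, 4 and 5 and 76.8, 76.2 and 90.0 in mutants 1, 2 and 6. Mutants and controls overlapped at both ages, and the older cortices were higher on the whole, with control 3 inside the range of the younger ones. *Stat2* rose with age, from 56.4 ± 9.64 (SD, n = 6) to 78.6 ± 8.95, by 0.48 ± 0.14 (SE) on the log2 scale (limma, adjusted p = 0.00865; exact permutation within genotype, two-sided p = 0.01). This call is read against a background in which 23.8% of genes rose and 29.3% fell with age.

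In culture *Stat2* was near its cortical level, at 94.2 ± 20.5 (SD, n = 6) after 12 hours and 88.9 ± 13.8 after 24 hours. After 12 hours the controls were 61.3, 96.3 and 126 and the mutants 94.6, 93.6 and 93.2. The mutants lay close together and inside the wide range of the controls. The difference from E14.5 cortex was 0.24 on the log2 scale (adjusted p = 0.36), with 5 of 6 embryos higher in culture. The genotype differences ran from -0.30 at E11.5 to 0.09 at E14.5, with 95% intervals that together reached from -0.75 to 0.77.

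*Irf9* (ENSMUSG00000002325, chromosome 14, 55603571 to 55610030, plus strand) encodes the DNA-binding partner of STAT2. It shares 123 bases with *Rnf31* on the same strand, where reads cannot be assigned to 1 gene. In E11.5 cortices its normalized read count was 106, 106 and 123 in controls D, E and F and 75.5, 100.4 and 106 in mutants A, B and C. In E14.5 cortices it was 80.0, 85.7 and 101 in controls 3, 4 and 5 and 129.9, 91.6 and 98.7 in mutants 1, 2 and 6. The mutants tended to be the lower group at the younger age and the higher group at the older age, and the groups overlapped at both. The change of the genotype difference between ages was 0.51 ± 0.26 (SE) on the log2 scale (limma interaction, unadjusted p = 0.072, adjusted p = 0.63).

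Over stages *Irf9* moved little. Its mean was 102.8 ± 15.4 (SD, n = 6) at E11.5, 97.8 ± 17.6 at E14.5, 120.3 ± 25.1 after 12 hours and 134 ± 17.3 after 24 hours. Neighbouring stages overlapped in each case. The log2 differences between them were -0.07 for age (adjusted p = 0.69), 0.29 for 12-hour culture against cortex (adjusted p = 0.23) and 0.17 for 24 against 12 hours (adjusted p = 0.81). In the 12 cortices together the genotype difference of *Irf9* was 0.00 with a 95% interval of -0.31 to 0.30.

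Other genes of signal transduction were all measurable, and 7 of 7 were tested in cortex. With age *Jak2*, a kinase of the gamma receptor, rose by 0.71 ± 0.11 (SE) on the log2 scale (adjusted p = 6.94e-05). *Tyk2*, a kinase of the type I receptor, was lower (-0.50 ± 0.20, adjusted p = 0.0454). In culture 1 of 6 tested genes passed, *Irf8*, a factor of myeloid cells (-1.92 ± 0.45, adjusted p = 0.00462). *Irf8* averaged under 10 in culture and entered the test only through its cortical level. With the embryo as a block, the receptor kinase *Jak1* passed as well (-0.32, adjusted p = 0.0344).

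The sensors and adaptors upstream of interferon were 18 genes in the table, with 10 tested for age. None rose and 5 fell, with a list median of -0.74 on the log2 scale beside -0.08 over all genes, of which 23.8% rose and 29.3% fell. *Mavs*, the adaptor of the RNA sensors, fell by 1.18 ± 0.20 (SE, adjusted p = 0.000109), and *Myd88*, an adaptor of Toll-like receptors, by 1.34 ± 0.36 (adjusted p = 0.00463). The others were the adaptor *Ticam1* (-0.68), the RNA sensor *Ifih1* (-1.05) and the factor *Irf3* (-0.38), which sits at the end of the cGAS and STING route. In culture 1 of 7 tested genes passed, the kinase *Tbk1*, which was higher by 0.47 ± 0.15 (adjusted p = 0.0321). With the embryo as a block *Tbk1* no longer passed (adjusted p = 0.0507), and the DNA sensor *Aim2* passed as lower (-1.27, adjusted p = 0.0220). The DNA sensor *Cgas* and its partner *Tmem173*, which encodes STING, were measurable, at 0 to 30.5 and 0 to 31.4 over the 24 libraries. At 24 hours, *Cgas* had a genotype difference of 0.10 ± 0.67 (SE, adjusted p = 0.98) and *Tmem173* one of -1.02 ± 0.85 (adjusted p = 0.73), with intervals of -1.32 to 1.53 and -2.84 to 0.80. At 12 hours the mean of *Tmem173* was the higher in mutants, at 16.6 ± 8.61 (SD, n = 3) and 5.97 ± 6.32 in controls. Its genotype difference moved by -2.91 ± 1.34 (SE) from 12 to 24 hours (limma interaction with the embryo as a block, unadjusted p = 0.0421, adjusted p = 0.999732).

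*Irf7* (ENSMUSG00000025498, chromosome 7, 141262706 to 141266481, minus strand) encodes the factor that amplifies interferon production and is itself strongly induced. Its normalized read count reached 4.33 in E11.5 cortex (mutant C), 2.35 in E14.5 cortex, 6.07 in 12-hour culture (control 5) and 4.10 in 24-hour culture (control 3). It was at 0 in 3 of 3 mutants at 24 hours, and in 1 of 3 controls. With 31 reads in all, none of its genotype differences could be told from counting error, and the exact permutation p was between 0.4 and 1 within stages.

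*Isg15* (ENSMUSG00000035692, chromosome 4, 156199424 to 156200818, minus strand) encodes a ubiquitin-like protein that is conjugated to others during the response. In E11.5 cortices its normalized read count was 5.04, 8.36 and 10.9 in controls D, E and F and 7.10, 10.04 and 20.9 in mutants A, B and C. In E14.5 cortices it was 4.71, 1.45 and 17.4 in controls and 2.26, 5.52 and 9.40 in mutants, in the order of embryos given above. The groups overlapped at both ages, and the highest value at each age came from a single embryo, mutant C or control 5. At E11.5, the one stage at which *Isg15* passed the filter, the difference was 0.51 ± 0.51 (SE) on the log2 scale (adjusted p = 0.82), and 0.25 to 0.83 on leaving out 1 library.

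In 12-hour culture *Isg15* was 0, 1.17 and 3.80 in controls 3, 4 and 5 and 7.80, 10.5 and 15.2 in mutants 1, 2 and 6. These values rested on 0, 1 and 5 reads against 8, 10 and 17. The 3 mutants lay above the 3 controls, at means of 11.2 ± 3.76 (SD, n = 3) and 1.66 ± 1.94. The exact permutation p was 0.1, two-sided, which is the smallest that 3 against 3 can give, and 5.09% of tested genes showed mutants above controls without overlap at 12 hours. *Isg15* itself lay under the filter, so that this share describes genes with higher counts. Without the filter the limma difference was 2.43 ± 1.29 (SE) on the log2 scale with an adjusted p of 0.87, and edgeR gave 2.54 with an adjusted p of 0.79. In 24-hour culture of the same embryos the controls were 4.10, 6.74 and 5.0 and the mutants 1.43, 7.09 and 0. Here 2 of 3 mutants lay below the controls, and the difference was -1.20 ± 0.95 (adjusted p = 0.84, no filter). The change between culture times was -3.63 ± 1.47 (limma without the filter, unadjusted p = 0.0229, adjusted p = 0.90), and in edgeR -3.40 with an unadjusted p of 0.0885.

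*Ifit1* (ENSMUSG00000034459, chromosome 19, 34640871 to 34650009, plus strand) and *Ifit3* (ENSMUSG00000074896, chromosome 19, 34583531 to 34588731, plus strand) encode partner proteins that bind foreign RNA. *Ifit1* was 1.18, 1.45 and 2.62 in E14.5 controls and 0, 1.10 and 0 in E14.5 mutants. This was the one stage at which its groups did not overlap, at 1 to 3 reads per control library (exact permutation p = 0.1, two-sided, the smallest possible), and 6.71% of tested genes had mutants below controls without overlap there. That share, too, is of genes above the filter, under which *Ifit1* lay. In 12-hour culture *Ifit1* was at 0 in 5 of 6 libraries, with 3.16 in mutant 2. *Ifit3* never exceeded 3.75, and its groups overlapped in every stage. The near-identical gene *Ifit3b* was listed at 0 in 24 of 24 libraries, and since reads common to a pair of copies can be split or dropped in counting, the level of *Ifit3* is uncertain.

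*Ifitm3* (ENSMUSG00000025492, chromosome 7, 141009586 to 141010770, minus strand) encodes a membrane protein that blocks the fusion of viruses in endosomes and is also present without interferon in vessel and progenitor cells. In E11.5 cortices its normalized read count was 52.4, 52.7 and 45.1 in controls D, E and F and 72.9, 45.7 and 122 in mutants A, B and C. In E14.5 cortices it was 97.6, 78.4 and 81.1 in controls 3, 4 and 5 and 83.6, 99.4 and 73.6 in mutants 1, 2 and 6. Mutant C stood highest of the 12 cortices, and otherwise the E14.5 cortices lay above the E11.5 cortices in both genotypes. The age difference was 0.48 ± 0.20 (SE) on the log2 scale and just missed the threshold (limma, adjusted p = 0.0565; exact permutation p = 0.055, two-sided). It passed without E11.5 mutant C (0.67, adjusted p = 0.00250), without E14.5 mutant 6 (0.55, adjusted p = 0.0371), with TMM scaling (adjusted p = 0.0330) and with a term for embryo sex (adjusted p = 0.0288). The genotype difference at E11.5 was 0.56 with a 95% interval of -0.12 to 1.25, and 0.21 to 0.90 on leaving out 1 library. At E14.5 it was -0.01 with an interval of -0.44 to 0.42.

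After 12 hours of culture *Ifitm3* was 40.9, 49.3 and 30.4 in controls 3, 4 and 5 and 33.1, 19.99 and 17.0 in mutants 1, 2 and 6. The 6 cultures lay below the 6 cortices they were taken from, without overlap, which 7.76% of tested genes did. *Ifitm3* fell by 1.48 ± 0.24 (SE) on the log2 scale, to a fold of 0.358 (limma, adjusted p = 0.000319; exact sign-flip permutation over embryos, p = 0.03125, the smallest possible). In the background 16.1% of genes fell and 14.1% rose. After 24 hours the values were 47.8, 37.1 and 66.3 in controls and 35.1, 93.1 and 141 in mutants. They were higher than at 12 hours in 5 of 6 embryos, with mutants 2 and 6 above every control. The change from 12 to 24 hours was 1.02 ± 0.37 (unadjusted p = 0.0119, adjusted p = 0.34) and did not pass. The genotype difference of *Ifitm3* was -0.79 ± 0.53 at 12 hours (adjusted p = 0.91) and 0.65 ± 0.42 at 24 hours (adjusted p = 0.63). The latter was 0.22 without mutant 6, 1.21 without mutant 1 and 1.51 with a term for embryo sex (unadjusted p = 0.0133, adjusted p = 0.29).

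*Bst2* (ENSMUSG00000046718, chromosome 8, 71534255 to 71537456, minus strand) encodes tetherin, which holds budding viruses at the cell surface. Its normalized read count was 3.89 to 14.4 in E11.5 cortices, 2.21 to 11.8 in E14.5 cortices, 0 to 5.26 after 12 hours and 0 to 10.1 after 24 hours. It lay under the filter in every stage. Without the filter the difference of 12-hour culture from cortex was -1.52 ± 0.64 (SE, limma, adjusted p = 0.13), and 5.26 and 10.1, the highest values at both culture times, were those of mutant 2.

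*B2m* (ENSMUSG00000060802, chromosome 2, 122147686 to 122153083, plus strand) encodes the light chain of MHC class I, which presents peptides to T cells and is induced by both type I and type II interferon. In E11.5 cortices its normalized read count was 338, 449.9 and 274 in controls D, E and F and 321, 306 and 480.3 in mutants A, B and C. In E14.5 cortices it was 189, 186 and 133 in controls 3, 4 and 5 and 164, 212 and 199.7 in mutants 1, 2 and 6. The 12 cortices separated by age without overlap, as 14.9% of tested genes did in the same direction, and not by genotype. *B2m* fell from 361 ± 83.6 (SD, n = 6) to 181 ± 28.2, a log2 difference of -0.98 ± 0.15 (SE) or a fold of 0.506 (limma, adjusted p = 3.57e-05; exact permutation within genotype, two-sided p = 0.005, the smallest possible). With *Stat2* it made 2 of 4 members called for age, where 53.1% of all genes were called.

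After 12 hours of culture *B2m* was 69.2, 96.3 and 94.9 in controls 3, 4 and 5 and 74.1, 53.7 and 57.3 in mutants 1, 2 and 6. All 6 cultures were below the cortices of the same embryos, and *B2m* fell by 1.29 ± 0.18 (SE) on the log2 scale to a fold of 0.409 (adjusted p = 8.59e-05; exact sign-flip permutation p = 0.03125, the smallest possible). *B2m* and *Ifitm3* were the 2 of 4 members called for culture, where 30.2% of all genes were called. Blocking on the embryo gave the same log2 differences, with adjusted p of 0.000752 and 0.00141.

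Markers of endothelium, microglia, pericytes and meninges were also lower in culture. The summed normalized read count of 12 endothelial markers was 1526 to 1826 in E14.5 cortices and 46.3 to 180.0 in 12-hour cultures, and that of 15 microglial markers was 634 to 1481 and 12.5 to 94.4. The sum of 7 pericyte markers went from 574 to 755 in cortex to 28.3 to 64.6 in culture, and that of 10 meningeal markers from 1632 to 2719 to 135 to 273. Most of these markers averaged under 10 in culture, so that no count of their calls is given. The sum of 9 erythroid markers was higher in culture, at 38260 to 45370 in E14.5 cortices and 69450 to 153200 in 12-hour cultures. That of 11 liver markers overlapped, at 6.26 to 997 and 1.57 to 1403. The part of these cell types in the fall of *B2m* and *Ifitm3* was not tested.

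**Figure D4:**
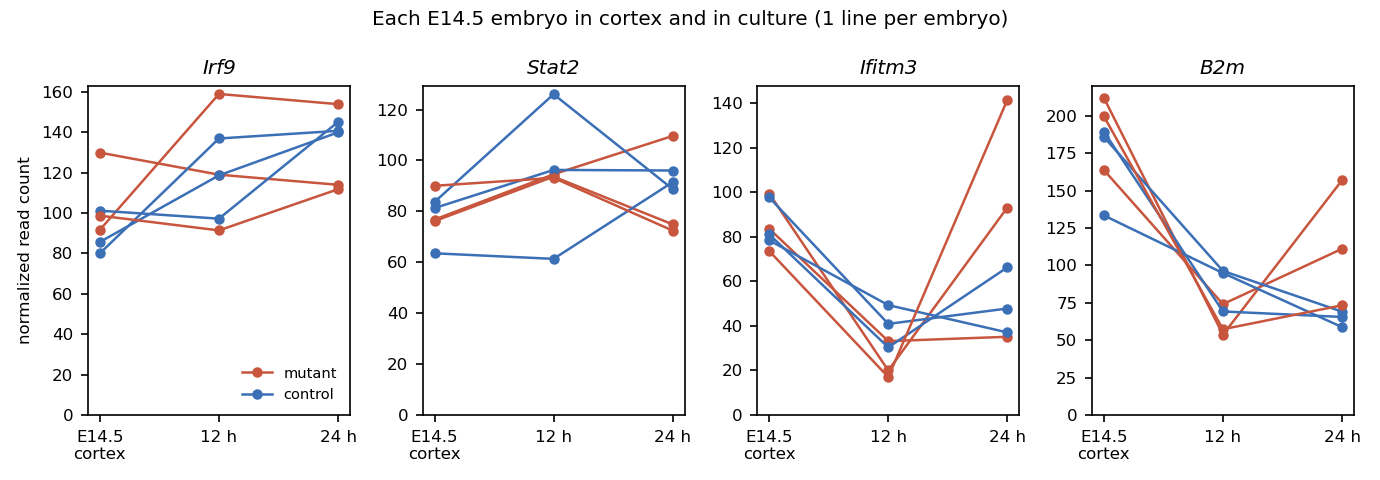
Normalized read count of 4 members in the E14.5 cortex, 12-hour culture and 24-hour culture of each embryo (1 line per embryo, 3 mutants and 3 controls). *Ifitm3* and *B2m* fall in 6 of 6 embryos on entry into culture, and from 12 to 24 hours *B2m* rises in the 3 mutants and falls in the 3 controls.

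From 12 to 24 hours *B2m* moved in opposite directions in the 2 genotypes. After 24 hours it was 65.5, 69.1 and 58.8 in controls 3, 4 and 5 and 111, 157 and 73.3 in mutants 1, 2 and 6. The mutants, at 113.8 ± 41.8 (SD, n = 3), lay above the controls, at 64.5 ± 5.25, without overlap. The difference was 0.75 ± 0.28 (SE) on the log2 scale with a 95% interval of 0.14 to 1.35 (limma, unadjusted p = 0.0197, adjusted p = 0.35; exact permutation p = 0.1, two-sided, the smallest possible). Mutants lay above controls without overlap in 7.15% of all genes tested at 24 hours. The per-embryo change from 12 hours was -0.08, -0.47 and -0.68 in controls and 0.58, 1.53 and 0.35 in mutants. Controls all fell and mutants all rose in 0.913% of genes, and the genotypes moved oppositely in either sense in 2.06%. The test of the difference itself gave 1.23 ± 0.43 (interaction, unadjusted p = 0.0114), with an adjusted p of 0.999965, and 0.999732 with the embryo as a block.

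Several measures moved with genotype at 24 hours beside *B2m*. Without mutant 2, which had the highest *B2m*, the difference was 0.48 (adjusted p = 0.63), and with a term for embryo sex it was 0.19 (adjusted p = 0.88). The controls at E14.5 and in culture were all male, whereas mutants 1 and 2 were female. The summed count of 10 meningeal markers was 157 to 209 in controls and 298 to 342 in mutants at 24 hours, and that of 7 pericyte markers 11.8 to 45.0 and 59.5 to 83.8. The sum of 11 liver markers, of which 8 were at 0 in the controls, was 1.69 to 6.83 in controls and 115 to 403 in mutants. In E14.5 cortex of the same embryos the liver sum was 10.6, 957 and 997 in controls 3, 4 and 5 and 6.26 to 13.55 in mutants. At 12 hours it overlapped, at 1.57 to 1403 in controls and 199 to 922 in mutants. The sum of 15 microglial markers did not separate the genotypes, at 38.2, 67.4 and 91.3 in controls and 27.2, 202 and 14.0 in mutants 1, 2 and 6. The sum of 10 dorsal progenitor markers at 24 hours was 10800 to 11440 in controls and 12800 to 14280 in mutants. *Gm42418*, an RNA gene with ribosomal sequence, took 6.26% to 13.9% of the counts in controls and 20.5% to 23.05% in mutants. The part of these measures in the level of *B2m* was not tested.

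In cortex microglial markers differed between genotypes. The summed microglial markers were 634 to 755 in E14.5 controls and 1129 to 1481 in E14.5 mutants, and 510 to 797 and 838 to 1112 at E11.5. The endothelial, pericyte and meningeal sums overlapped between genotypes at E14.5. At E11.5 the endothelial sum was 1813 to 2001 in controls and 2043 to 2157 in mutants. The sum of 10 dorsal progenitor markers was 17020 to 19520 in E11.5 controls and 15300 to 16910 in E11.5 mutants, and overlapped at E14.5. The sum of 8 cortical neuron markers was 36580 to 39420 in E14.5 controls and 28730 to 29430 in E14.5 mutants. *B2m* and *Irf9* had log2 genotype differences of 0.19 and 0.25 at E14.5 (adjusted p = 0.77 and 0.70). The part of these markers in the differences was not tested.

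The interaction terms called no member either. The count was 0 of 4 for genotype by age, genotype by culture (24-hour culture against cortex) and genotype by culture time, where 0% of all genes were called in each. At an unadjusted p under 0.05 the members gave 0, 0 and 2, beside 7.84%, 6.16% and 2.38% of all genes, and edgeR and DESeq2 also called 0 of 4 in both culture interactions. The 2 were *B2m* and *Ifitm3*, whose genotype difference moved by 1.44 ± 0.67 (SE) on the log2 scale from 12 to 24 hours (unadjusted p = 0.0472). For 24 against 12 hours 0 of 4 members were called by limma, edgeR or DESeq2, 1 of 4 (*Ifitm3*) had an unadjusted p under 0.05, and among all genes 0.292% were called and 9.64% had such a p.

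The wider set of interferon effectors was read in the same way, from a list of 54 genes in the table that leaves out the 9 members. Of these, 53 were above 0 in at least 1 library, 17 had a mean of at least 10 and 10 a mean under 1. Several genes that interferon induces strongly were near 0, with *Mx1*, a GTPase that blocks viruses, between 0 and 3.6 and above 0 in 5 libraries. *Oas1a*, which senses RNA, lay between 0 and 3.3. *Usp18*, which removes ISG15 from proteins and belongs to the list of genes that restrain the response, lay between 0 and 7.5. The chemokine *Cxcl10* reached further, between 0 and 15.2. At 12 hours *Cxcl10* was 1.05 to 15.2 in mutants and 0 to 9.39 in controls. At 24 hours it was 0.717, 4.37 and 8.10 in mutants and 0 in 3 of 3 controls, without overlap. The 0.717 was 1 read, and a 0 in those controls allows 3.75 to 5.06 normalized reads. *Cxcl10* lay under the filter, above which mutants exceeded controls without overlap in 7.15% of genes at 24 hours. In RefSeq promoters, 21 of 42 effector genes with an entry (50%) held the response element core in at least 1 promoter. Of all promoters 8.56% held it, a share counted by promoter and not by gene.

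With age 1 effector rose and 7 fell among 18 tested, with a list median of -0.42 on the log2 scale beside -0.08 over all genes. Of all genes 53.1% were called and 29.3% fell. *Eif2ak2*, the kinase PKR that halts translation, fell by 1.10 ± 0.21 (SE, adjusted p = 0.000414). *Ube2l6* and *Uba7*, the enzymes that conjugate ISG15, fell by 0.81 ± 0.20 (adjusted p = 0.00297) and 1.44 ± 0.39 (adjusted p = 0.00520). *Dtx3l*, a ubiquitin ligase, was lower (-0.79), as was *Ifitm2* (-0.61), a close relative of *Ifitm3* whose reads may in part be shared. *Lgals9* was the gene that rose (0.67 ± 0.24, adjusted p = 0.0249).

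In 12-hour culture 0 effectors rose and 8 fell among 15 tested, with a list median of -1.36 beside -0.06 over all genes. *Ifitm1* fell by 3.65 ± 0.60 (SE, adjusted p = 0.000325) and *Ifitm2* by 2.50 ± 0.47 (adjusted p = 0.000963). *Lgals9* (-2.08), *Ifit2* (-1.97) and *Trim25* (-1.80), an E3 ligase of the RNA-sensing route, were also lower. Of the 8, *Ifitm1*, *Lgals9*, *Ifit2* and *Gbp7* averaged under 10 in culture and entered the test only through their cortical values, so that the count and the median describe genes that cortex expressed and no more. The endothelial and microglial sums above fell over the same step, and their part was not tested.

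**Figure D5:**
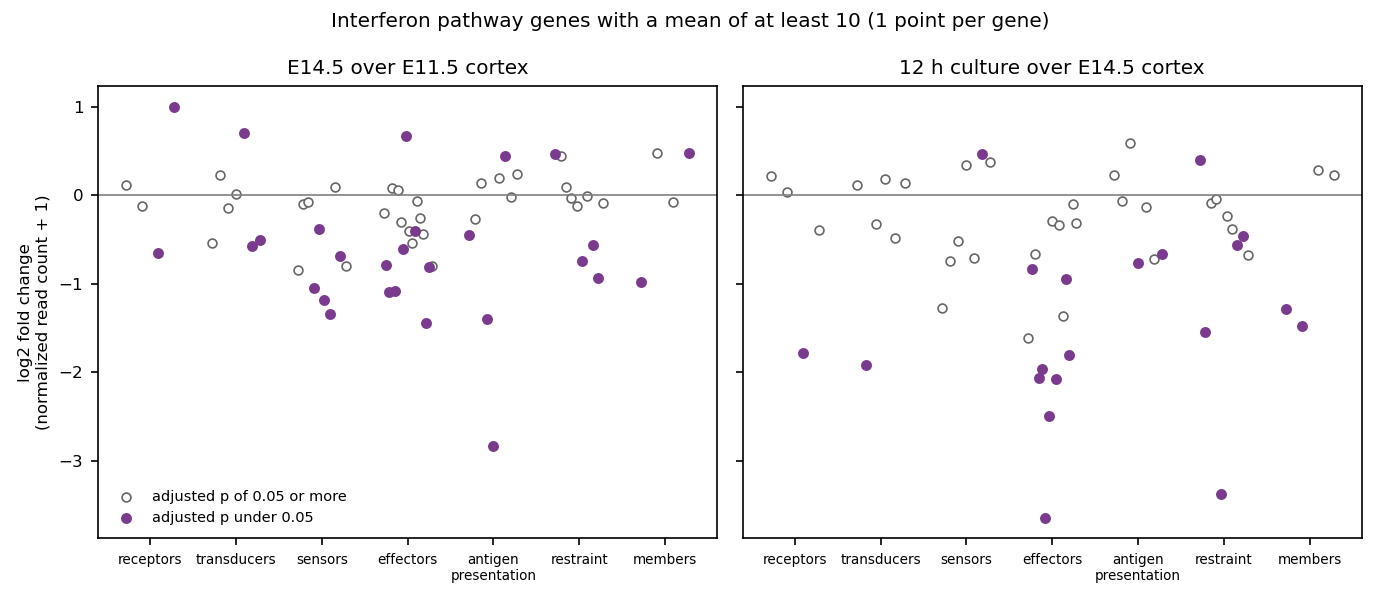
Log2 fold change of the normalized read count plus 1 for interferon pathway genes with a mean of at least 10, by role (1 point per gene; filled, adjusted p under 0.05), for E14.5 against E11.5 cortex and for 12-hour culture against E14.5 cortex. Genes low in culture entered the right panel through their cortical values, and with age 5 of 10 sensors fell and 0 rose.

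Of 9 other genes of antigen presentation tested for age, 1 rose and 3 fell, with a list median of -0.02, beside 23.8% and 29.3% of all genes. The class I genes *H2-Q7* and *H2-K1* fell by 2.83 ± 0.31 (SE, adjusted p = 1.39e-06) and 1.39 ± 0.28 (adjusted p = 0.000529), the chaperone *Calr* fell by 0.44 ± 0.12 (adjusted p = 0.00423), and the proteasome activator *Psme1* rose by 0.45 ± 0.10 (adjusted p = 0.000975). *H2-Q7* averaged under 10 at E14.5 and entered the age test only through its E11.5 level. Class I genes are near copies of each other, and the assignment of their reads is uncertain. In culture 2 of 7 fell, the immunoproteasome subunit *Psmb10* (-0.77 ± 0.25, adjusted p = 0.0272) and *Tapbp*, the tapasin that loads peptides (-0.67 ± 0.24, adjusted p = 0.0471).

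The genes that restrain the response were well expressed, with 10 of 13 tested for age and for culture. With age 1 rose and 3 fell, at a list median of -0.06, beside 53.1% of all genes called. *Samhd1*, which degrades nucleotides, fell by 0.93 ± 0.11 (SE, adjusted p = 2.90e-06), and the RNase H2 subunits *Rnaseh2a* and *Rnaseh2c*, which clear RNA-DNA hybrids and also serve replication, were lower by -0.74 ± 0.10 (adjusted p = 1.67e-05) and -0.56 ± 0.08 (adjusted p = 1.97e-05). *Adar*, which edits double-stranded RNA, rose by 0.47 ± 0.09 (adjusted p = 0.000487). In culture *Adar* was again higher (0.41 ± 0.13, adjusted p = 0.0258) and 4 genes were lower, led by *Ptpn6*, a phosphatase of blood cells (-3.38 ± 0.54, adjusted p = 0.000250). *Ptpn6* averaged under 10 in culture and was tested only for its cortical level. With the embryo as a block 2 genes were lower, *Ptpn6* and *Rnaseh2c*, while *Samhd1* and *Nlrx1* no longer passed (adjusted p = 0.0548 and 0.0503). *Trex1*, which degrades cytoplasmic DNA, was listed at 0 in 24 of 24 libraries, and it lies within *Atrip* on the same strand over its whole length of 1802 bases, so that its reads cannot be assigned.

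Over the 6 lists from receptors to restraint, 26 of 58 genes tested were called for age and 18 of 49 for culture, beside 53.1% and 30.2% of all genes, the culture count including the genes that entered through cortex alone. For genotype limma called 0 of 59 in E11.5 cortex, 0 of 54 in E14.5 cortex and 0 of 45 in each culture. With unadjusted p under 0.05 the lists gave 1, 2, 2 and 4 genes, and edgeR and DESeq2 called 0 in the 3 comparisons they were run on. The smallest adjusted p among these lists was 0.33, at 24 hours. That was *H2-K1*, at 0.93 ± 0.34 (SE) on the log2 scale. The median difference of the 11 effectors tested at each time was 0.39 at 24 hours and -0.67 at 12 hours, beside -0.01 and -0.02 over all genes. At 24 hours *Ifitm1* and *Tor3a* averaged 10 or more in mutants alone and entered the test through them. At 12 hours *Cmpk2* and *Trim25* did so in controls alone, and *Xaf1*, *Lgals3bp* and *Parp9* in mutants alone. These medians thus rest in part on the filter. At 12 hours the microglial sum was 57.5 to 94.4 in controls and 12.5 to 47.8 in mutants, and the endothelial sum 46.3 to 102 and 128 to 180.0, and their part in these medians was not tested. The same 6 embryos stand behind both times, none of these differences passed, and limma called 0 of 44 genes of the 6 lists for 24 against 12 hours and 0 of 44 for its interaction with genotype, where 3 and 2 genes had an unadjusted p under 0.05.

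The genes whose values followed a member most closely were ranked by Pearson's r of log2(normalized read count + 1) over the 24 libraries, which share stages and embryos, among 13678 genes. For *B2m* these were *Abcg2* (r = 0.942), *Cdc6* (0.941) and *Ror1* (0.938). For *Irf9* they were *Trpm7* (0.860), *Clk1* (0.840) and *Pmm2* (0.837), and for *Stat2* they were *Slc45a1* (0.868), *Nacad* (0.866) and *Nagk* (0.861). For *Ifitm3* they were *Tbc1d10a* (0.763), *Slc38a3* (0.757) and *Hsd17b11* (0.752). No gene of the interferon lists was among these 12.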

How the data were processed

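The authors prepared stranded 3′ libraries by oligo(dT) priming (QuantSeq FWD) and aligned reads to GRCm38. Their processing notes name FastQC 0.11.7, TopHat2 2.0.10, Bowtie 1.0.0, SAMtools 0.1.19, HTSeq 0.6.1 and DESeq2. They deposited 1 table of signal, normalized read counts of 54658 genes in 24 libraries, unpooled. Values above 0 were whole multiples of 1 read in 23 libraries (100% of 464180 values, within 0.001 reads); for E11.5 control D this could not be settled, so that edgeR (4.0.16) and DESeq2 (1.42.0) were run on whole reads for comparisons without E11.5. Gene positions are GENCODE vM21, whereas the authors counted on vM20.

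The main test was limma (3.58.1, R 4.3.3) with a trend on log2(normalized read count + 1), limited to genes averaging 10 or more over the libraries of a comparison, adjusted by Benjamini-Hochberg over all genes tested (threshold 0.05). Fold changes are on that scale and understate changes of low genes. Errors are SE, or SD where stated. Single members were also tested by exact permutation. Libraries of a stage are separate embryos. E14.5 cortex and cultures of an embryo are paired by the labels; deviations from group means of the same embryo had correlations of -0.114 to 0.235 over 18 pairs (median 0.137, 12 above 0.1). Sex was read from *Xist* and Y-linked transcripts. Scripts were tested on simulated data.

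Named were all members, up to 5 genes per pathway list and comparison with the smallest p among those past the threshold, *Cep135*, and the 3 genes most like each member with a mean of at least 50. Other genes, including *Ifnar1*, *Ifnar2*, *Ifnlr1*, *Mx1*, *Usp18*, *Oas1a*, *Cxcl10*, *H2-K1* at 24 hours, *Cgas*, *Tmem173* and *Gm42418*, were added with their values in view. The members and lists were chosen with earlier results of these data known. Alternatives were other pseudocounts, filters, scalings and tests, a fit of all libraries, terms for sex and for the sample name prefix (taken as the litter, which no label states), an embryo block, and leaving out each library.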

Additional observations from a re-analysis of the deposited data

Results flagged for a closer look

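*B2m* changed in opposite directions between 12 and 24 hours of culture in the 2 genotypes, higher in 3 of 3 mutant embryos and lower in 3 of 3 control embryos. The test of this difference gave 1.23 on the log2 scale (limma interaction, unadjusted p = 0.0114, adjusted p = 0.999965), and leaving out 1 library at a time gave 0.97 to 1.51. Of all genes tested, 2.06% moved in opposite directions in the 2 genotypes, *Ddx58* and *Dtx3l* among them from the pathway lists. The change of *B2m* in control 3 was -0.08, on 44 reads at 12 hours and 48 at 24 hours. Its genotype difference was -0.48 at 12 hours (exact permutation p = 0.2, two-sided). At 24 hours it was 0.75, and 0.19 with a term for embryo sex.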

How the results depend on the processing

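The count of members called was 0 under every alternative run for the genotype, culture time and interaction comparisons, 2 for culture under all 24 alternatives, and 2 to 3 for age, the third being *Ifitm3*. Of 904 recomputed values of 45 member differences, 873 kept their direction and side of the threshold, 4 passed it and 27 changed sign, none of these past the threshold. Signs changed for *B2m* with a term for sex at E11.5 (-0.094) and in the 12 cortices (-0.016), for *Irf9* at 12 hours with that term (-0.35) and for *Ifitm3* at E14.5 with quantile normalization (0.013). *Stat2* at 12 hours changed with edgeR (-0.015, and -0.025 without a filter) and DESeq2 (-0.025). Leaving out 1 library at a time gave -0.14 to 0.25 (*B2m*, E11.5), -0.030 to 0.17 (*Stat2*, E14.5), -0.12 to 0.094 (*Ifitm3*, E14.5), -0.16 to 0.24 (*Irf9*, 12 hours), -0.23 to 0.28 (*Stat2*, 12 hours), -0.10 to 0.091 (*Irf9*, 12 cortices), 0.039 to 0.21 (*B2m*, 12 cortices), -0.20 to 0.028 (*Stat2*, 24 against 12 hours), -0.063 to 0.33 (*B2m*, genotype by age) and -0.41 to 0.10 (*Stat2*, genotype by culture time). The cause was not tested.

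With the embryo number as a replicate block, 3885 genes were called for culture (4107 without it), 104 for culture time (39), 6 for genotype by culture (0) and 0 for genotype by culture time (0). The pairing changed no call of a member; among the pathway lists it ended the calls of *Tbk1*, *Dtx3l*, *Samhd1* and *Nlrx1* for culture and added *Jak1* and *Aim2*. Counts of all genes called ranged over the alternatives from 0 to 17 at E11.5 (2 in the main fit), 1 to 294 at E14.5 (10), 0 to 182 at 12 hours (0), 4 to 280 at 24 hours (36), 6 to 35 in the 12 cortices (19), 19 to 162 for culture time (39), 0 to 99 for genotype by culture (0), 0 to 19 for genotype by culture time (0) and 0 to 1 for genotype by age (0). edgeR and DESeq2 were not run where E11.5 libraries entered. With at most 4, 3 and 8 reads in a library, *Ifit1*, *Ifit3* and *Irf7* are limited by depth.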
